A study of Mus musculus with 16 samples.

Results

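The respiratory chain and ATP synthase of the mouse were represented by 104 protein-coding genes among the 55416 genes of the count table, and their transcripts were compared across an early step of red cell maturation and across Nprl3 genotypes. The rule for members reads the annotation and the symbol: symbols starting with Nduf and one of the letters a, b, c, s or v before a digit, Sdha to Sdhd, Uqcr, Cyc1, Cycs, Cox4 to Cox8, Atp5 or mt-. Of these, 91 lie in the nuclear genome and 13 in the mitochondrial genome. Complex I (NADH dehydrogenase) contributed 37 nuclear and 7 mitochondrial genes, complex II (succinate dehydrogenase) 4 nuclear genes, complex III (the cytochrome bc1 complex) 9 nuclear genes and 1 mitochondrial gene, complex IV (cytochrome c oxidase) 21 nuclear and 3 mitochondrial genes, and complex V (ATP synthase, with its inhibitor Atp5if1) 19 nuclear and 2 mitochondrial genes. The remaining gene was Cycs, which encodes somatic cytochrome c.

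RNA sequencing was performed on erythroblasts sorted by Ter119 and CD71 from the livers of 8 mouse foetuses at E13.5, with 1 S1 library (CFU-E, the earlier stage) and 1 S3 library (basophilic erythroblasts) from each embryo, 16 libraries in all. The embryos were 4 wild-type (WT) embryos, of which embryos 1 and 5 were female and embryos 8 and 0 male, 2 heterozygotes (Het), embryos 3 and 4, both male, and 2 Nprl3-/- (KO) embryos, of which embryo 2 was female and embryo 9 male. The germline allele deletes the Nprl3 promoter in every cell, so the genotype was not restricted to erythroid cells, and it leaves the alpha-globin enhancers that lie in Nprl3 introns in place. The line had been backcrossed to C57BL/6J. Sample titles and the study's methods gave foetal liver erythroblasts, whereas the tissue and source fields of the labels named embryonic stem cells. In these libraries 7 pluripotency markers (among them Pou5f1, Nanog and Sox2) summed to between 0 and 0.102 TMM-scaled counts per 1000000 (CPM), and 10 erythroid markers summed to between 1869 and 128123 CPM.

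The chain passes electrons from NADH and succinate to oxygen through complexes I, III and IV, with complex II feeding in from the citric acid cycle, and pumps protons whose return through ATP synthase makes ATP. Complexes I, III, IV and V join subunits made in the cytosol from nuclear genes to subunits made inside the organelle from mitochondrial DNA, whereas complex II is encoded in the nucleus alone. Early erythroblasts are rich in mitochondria, which also carry out the first and last steps of haem synthesis, and the organelles are cleared before the red cell is mature. Nprl3 belongs to GATOR1, a complex that restrains mTORC1 signalling when amino acids are scarce.

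Many nuclear genes of the chain carry a site for NRF1, an activator of respiratory genes, near their start. The promoter windows of RefSeq (build GRCm38.p6, from 250 bases before to 50 after each start) covered 69 of the 91 nuclear members. The palindrome that NRF1 binds, searched as its 10 exact letters, occurred in the windows of 5 of these 69 genes (7.25%), against 257 of 17492 protein-coding genes with a window (1.47%). The 4 windows in which it lies before the start are printed as 60-base stretches, because they fall on genes that behaved differently from S1 to S3. The capitals mark the palindrome, which begins 162 bases before the start in Cox6a1, 60 in Ndufa11, 50 in Atp5me and 42 in Atp5mc2, and each stretch is written on the strand of its gene.
Cox6a1, chr5:115349096-115349155, minus strand: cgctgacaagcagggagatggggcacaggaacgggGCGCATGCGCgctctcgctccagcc
Ndufa11, chr17:56717667-56717726, plus strand: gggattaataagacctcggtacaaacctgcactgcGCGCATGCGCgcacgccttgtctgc
Atp5me, chr5:108434425-108434484, minus strand: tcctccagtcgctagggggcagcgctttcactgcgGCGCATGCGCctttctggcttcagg
Atp5mc2, chr15:102671065-102671124, minus strand: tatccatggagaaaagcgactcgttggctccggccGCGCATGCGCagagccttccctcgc
In WT embryos Cox6a1 and Ndufa11 were called higher at S3 (log2 fold changes 1.48 and 1.32), Atp5mc2 was called lower (−1.60), and Atp5me was not called (0.74). The fifth gene, Uqcrc1, carries the palindrome after its start and was called higher (0.56).

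The windows were also searched, on both strands, for the core letters of a GABPA site, a YY1 site and a GATA site, none of which contains or is contained in the palindrome. The GABPA letters CCGGAAGT were in 5 of the 69 members (7.25%) and 5.69% of all coding windows, the YY1 letters AAGATGGCG in 7 (10.1%) and 2.14%, and the GATA letters AGATAA in 6 (8.7%) and 11.2%. Among the 32 members with a window that were called higher at S3 in WT embryos, 3 had the NRF1 palindrome, 3 the GABPA letters, 3 the YY1 letters and 0 the GATA letters. Among the 31 that were not called, the same counts were 1, 2, 4 and 5. These are matches of letters in a window and not measured binding.

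The 13 mitochondrial genes could not all be counted equally well, because mouse chromosome 1 holds a recent nuclear copy of part of the mitochondrial genome at 24650616 to 24655269 (GRCm39), and reads that fit both places were left out by the counting. The 6 mitochondrial members mt-Atp6, mt-Atp8, mt-Co2, mt-Co3, mt-Nd3 and mt-Nd4l have a whole copy there of at least 99% identity, mt-Nd4 has 63.6% of its length copied and mt-Co1 31.3%, and mt-Cytb, mt-Nd1, mt-Nd2, mt-Nd5 and mt-Nd6 have none. The 6 genes copied whole had between 0 and 543 reads in any library and the 5 without a copy between 574 (mt-Nd6) and 57124 (mt-Nd1), while the 2 genes copied in part lay within the range of the latter, with 3475 to 13207 for mt-Nd4 and 15701 to 50392 for mt-Co1. The edge of the copied block within mt-Co1 is shown because the part of the gene before it has no nuclear copy of at least 99% identity (GRCm39, chrM:6350-6429, plus strand, capitals marking the copied part from base 6390 onwards).
mt-Co1: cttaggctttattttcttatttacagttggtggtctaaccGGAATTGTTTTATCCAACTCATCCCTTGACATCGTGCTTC
Levels of the copied genes therefore leave out reads that fit both places. In mt-Nd4 and mt-Co1 the uncopied part can give reads that tell the places apart, but where the counted reads lay along these genes was not tested. The genes copied whole have almost no such part, and where their few counted reads come from was not tested.

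Library totals ranged from 23331156 to 36035368 counts at S1 and from 20666044 to 37609502 at S3. Nprl3 itself was at 0.319 and 0.676 CPM in the KO libraries at S1, from 12.7 CPM upwards in the Het libraries and 22.6 to 32.6 in the WT libraries. At S3 the KO libraries still held 107 and 111 CPM against 146 to 204 in WT, counted without regard to strand at a locus that Mpg overlaps on the other strand and whose intronic enhancers, as the study notes, give spliced transcripts of their own. The part of either in these values was not tested. The S1 libraries of WT embryos 8 and 0 stood apart. The neutrophil marker sum was 115 and 203 CPM in embryos 8 and 0 and 1153 to 1694 CPM in the other 6 S1 libraries, the erythroid marker sum was 6634 and 6852 CPM against 1869 to 3000, and the hepatoblast marker sum was 337 and 362 CPM against 28.9 to 180. At S3 the neutrophil sum was at most 9.46 CPM, and the hepatoblast sum was highest in the same 2 embryos (561 and 932 CPM, against 94.7 to 290 in the other 6). The part of these differences between embryos in the results below was not tested beyond leaving the 2 embryos out. Markers of primitive erythroid cells summed to 3.67 to 84.3 CPM in WT S1 and 2151 to 4462 CPM in WT S3, and their part in the stage comparisons was not tested.

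In WT embryos most members stood above the median gene in their change from S1 to S3, unevenly between complexes, while their mean share of all counts was lower at S3. Of the 104 members, 96 passed the filter of a mean normalised count above 10, and with TMM scaling 44 were called higher and 5 lower at S3 (edgeR quasi-likelihood test, Benjamini-Hochberg adjusted p under 0.05), whereas with library totals alone 4 were called higher and 40 lower. Among all 13514 genes tested, 29.4% were called higher and 35.6% lower with TMM, and 13.3% and 64.3% with library totals. The median of all genes stood at −0.13 (log2, S3 over S1) with TMM and at −1.14 with library totals. Another scaling moves all genes by nearly the same amount, so the distance of a member from that median depends little on the choice. With TMM the nuclear members had a median 0.77 above it and the mitochondrial members 0.59, and 86 of 96 members lay above it. Since these are bulk samples, fewer cells of a type and less RNA per cell cannot be told apart. Leaving embryos 0 and 8 out of the WT comparison gave 55 calls higher and 6 lower, against 27.5% and 34.7% of all genes, while leaving out embryo 5 alone gave 26 calls higher, against 23.7% of all genes. Leaving out any 1 embryo gave 26 to 47 calls higher, against 23.7 to 30.2% of all genes. With the embryo as a block, 57 were called higher and 6 lower, against 31.7% and 37.0% of all genes, and with upper-quartile scaling 65 and 3, against 37.3% and 29.1%.

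**Figure D1:**
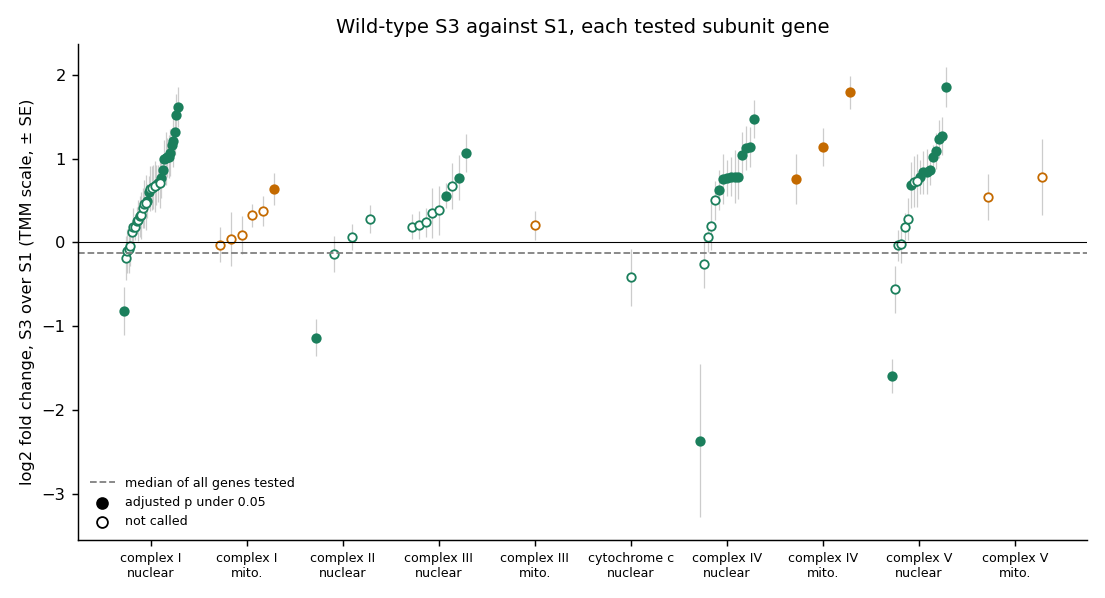
Log2 fold change from S1 to S3 in WT embryos (vertical axis, edgeR with TMM), 1 point per tested member with its SE as a bar, grouped on the horizontal axis by complex and genome and sorted within each. Filled points are called at an adjusted p under 0.05, open points are not, the dashed line is the median of all genes tested, and Cox6a2 (−6.01) lies off the scale and is not drawn. The 3 mitochondrial genes of complex IV sit higher than the 4 genes of complex II.

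Complex I, the entry point for electrons from NADH, had 36 nuclear members tested, of which 17 were called higher and 1 lower with TMM, and 1 higher and 14 lower with library totals. Here and for the other complexes the shares of all genes are the 29.4% higher and 35.6% lower with TMM and the 13.3% and 64.3% with library totals. With TMM 15 of the 29 accessory subunits, the outer proteins that surround the catalytic core, were called higher (median log2 fold change 0.67), as were 2 of the 7 nuclear core subunits (median 0.27), which is near the share of all genes, a difference that was not tested. Ndufb11, an accessory subunit of the membrane arm that is mutated in a human sideroblastic anaemia, was at 102, 90.0, 47.7 and 79.3 CPM in S1 of embryos 1, 5, 8 and 0 and at 283, 301, 189.8 and 181 CPM in S3 of the same embryos. Every S3 value lay above every S1 value (log2 fold change 1.61, SE 0.24, edgeR adjusted p = 1.75e-04). Ndufb7 (log2 fold change 1.52, SE 0.25, edgeR adjusted p = 3.72e-04), Ndufa11 (log2 fold change 1.32, SE 0.27, edgeR adjusted p = 0.00152) and Ndufa3 (log2 fold change 1.21, SE 0.32, edgeR adjusted p = 0.00632), all accessory subunits of the membrane arm, also rose with no overlap between stages. Of these 4 genes only Ndufb11 was still called higher with library totals (log2 fold change 0.63).

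The core of complex I, whose subunits carry the flavin and the iron-sulphur clusters, had 1 gene with a large and even rise. Ndufv1, which binds NADH and the flavin, was at 175, 193, 172 and 201 CPM in S1 and at 454, 438, 400.3 and 342 CPM in S3 (log2 fold change 1.16, SE 0.14, edgeR adjusted p = 3.19e-05). Ndufs3 was also called higher with TMM (log2 fold change 0.60, SE 0.20, edgeR adjusted p = 0.0194) and stood at −0.38 with library totals. The subunits Ndufs1 (0.26), Ndufs7 (−0.040), Ndufs8 (0.27) and Ndufv2 (0.41) were not called. The only nuclear complex I gene called lower was Ndufb5 (log2 fold change −0.82, SE 0.29, edgeR adjusted p = 0.0267), an accessory subunit of the membrane arm.

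Complex II gained least of the 5 complexes by its median (−0.038 over 4 genes with TMM). Sdhd, a membrane anchor of the complex, fell from 740.1, 661, 400.2 and 609 CPM in S1 to 346, 313, 198 and 214 CPM in S3, and the stages did not overlap (log2 fold change −1.14, SE 0.22, edgeR adjusted p = 0.00101). The other anchor Sdhc (0.065), the flavoprotein Sdha (0.27) and the iron-sulphur subunit Sdhb (−0.14) were not called with TMM. With library totals 4 of 4 genes of the complex were called lower. The transcripts of the 4 subunits of this complex, all nuclear, thus moved unequally within the same libraries.

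Complex III had 3 of 9 nuclear genes called higher with TMM, near the 29.4% of all genes, and 4 called lower with library totals, against 64.3% of all genes. Uqcrh, the hinge protein that contacts cytochrome c1, had the largest rise (log2 fold change 1.06, SE 0.23, edgeR adjusted p = 0.00194), and the core protein Uqcrc1 rose by less (log2 fold change 0.56, SE 0.15, edgeR adjusted p = 0.00713) and stood at −0.42 with library totals. The catalytic subunits Cyc1 (0.21) and Uqcrfs1 (0.24) and the core protein Uqcrc2 (0.19) were not called with TMM. Cycs, the mobile carrier between complexes III and IV, was at 762, 652, 226 and 496 CPM in S1 and 561, 459.9, 281 and 263 CPM in S3. The stages overlapped and Cycs was not called with TMM (log2 fold change −0.41, SE 0.34, edgeR adjusted p = 0.307), whereas with library totals it was called lower (log2 fold change −1.39, edgeR adjusted p = 0.00312).

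Complex IV, where oxygen is reduced, had 10 of 16 nuclear genes called higher and 2 lower with TMM, and 1 higher and 5 lower with library totals. Cox6a1, a small regulatory subunit, was at 393, 397, 206 and 412 CPM in S1 and 1058, 1179.9, 869 and 722 CPM in S3 (log2 fold change 1.48, SE 0.23, edgeR adjusted p = 2.18e-04), and it was also called higher with library totals (0.49). Cox6c (1.12), Cox7a2 (1.04), Cox6b1 (0.78) and Cox4i1 (0.77) were called higher with TMM but not with library totals. Cox5a (−0.26), Cox8a (0.50) and Cox7c (0.20) were not called. Ndufa4, once assigned to complex I and now known as a complex IV subunit, was called higher with TMM (log2 fold change 0.79, SE 0.31, edgeR adjusted p = 0.0458) and stood at −0.20 with library totals.

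Where complex IV subunits have tissue-specific isoforms, the ubiquitous form carried nearly all the transcript. Cox4i2, Cox7a1, Cox7b2, Cox8b and Cox8c stayed under 1 CPM in every library, and so did Ndufb11b, the short Atp5po locus, mt-Atp8 and mt-Nd4l. Cox6a2, the heart and muscle form of Cox6a1, was at 3.93, 2.16, 0.185 and 1.03 CPM in WT S1 and at 0, 0, 0 and 0.0845 CPM in S3. It was called lower (edgeR adjusted p = 0.00107), and with 3 of the 4 S3 libraries at 0 its fitted fold change is no measure of size. It passed the filter through the S1 libraries alone (raw counts of 156, 85, 9 and 33 in S1 against 0, 0, 0 and 2 in S3), so its call, which is among the 5 lower of the members and the 2 lower of complex IV with TMM and the 40 and 5 with library totals, is not independent of the filter. Ndufa4l2, a paralogue of Ndufa4 known as a hypoxia-inducible gene, was at 3.61, 3.34, 1.21 and 1.25 CPM in S1 and 0.140, 1.42, 0.0689 and 0 CPM in S3 (log2 fold change −2.37, SE 0.91, edgeR adjusted p = 0.0414), and with raw counts of 3, 37, 1 and 0 in S3 it too passed the filter mainly through S1. The S3 value of embryo 5 lay above the S1 values of embryos 8 and 0, so the stages overlapped.

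Cox6b2, an isoform best known from testis, was the exception among these minor forms. It was at 47.7, 59.8, 27.2 and 60.5 CPM in WT S1 and 104, 132, 102 and 83.2 CPM in S3 (log2 fold change 1.14, SE 0.24, edgeR adjusted p = 0.00169), with no overlap. Its log2 ratio of counts to Cox6b1 within a library went from −2.58 ± 0.19 (SD, n = 4) in S1 to −2.21 ± 0.19 in S3. Cox7a2l, a relative of Cox7a2 that joins complexes III and IV in supercomplexes, showed the opposite relation to its partner. Its ratio to Cox7a2 went from −1.54 ± 0.25 to −2.52 ± 0.21, with Cox7a2l itself at a log2 fold change of 0.068.

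Complex V had 10 of 18 nuclear genes called higher and 1 lower with TMM, and 1 higher and 6 lower with library totals. Atp5if1, the inhibitor that stops ATP synthase from running backwards and is known to be needed for haem synthesis in erythroblasts, had the largest rise of any nuclear member. It was at 571, 532, 243 and 479.9 CPM in S1 and 1885, 1825, 1443 and 1318 CPM in S3, so that the lowest S3 library held more than the highest S1 library (log2 fold change 1.86, SE 0.24, edgeR adjusted p = 6.52e-05). It was called higher with library totals too (0.88). Of its exon bases 33.7% overlap Gm12999 on the other strand, and reads of the 2 genes cannot be separated there.

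The catalytic head of the enzyme moved unevenly. Atp5f1b, the catalytic beta subunit, was at 2462, 2763, 2265 and 2721 CPM in S1 and 5421, 5438, 5017 and 4598 CPM in S3 (log2 fold change 1.02, SE 0.14, edgeR adjusted p = 9.80e-05), while the alpha subunit Atp5f1a (0.19) and the gamma subunit Atp5f1c (−0.037) were not called. The epsilon subunit Atp5f1e (1.09) and the delta subunit Atp5f1d (0.78) were called higher with TMM, and Atp5f1d stood at −0.20 with library totals. In the membrane part and stalk, Atp5mf (log2 fold change 1.27, SE 0.22, edgeR adjusted p = 5.21e-04) and Atp5pd (log2 fold change 1.24, SE 0.23, edgeR adjusted p = 6.82e-04) rose with no overlap between stages. The log2 ratio of Atp5if1 to Atp5f1b counts within a library went from −2.55 ± 0.48 to −1.68 ± 0.15 (SD, n = 4).

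The c-ring of ATP synthase is built from 1 mature protein made by 3 genes, Atp5mc1, Atp5mc2 and Atp5mc3, which differ in their import signals. Atp5mc2 fell from 52.1, 64.0, 35.1 and 55.1 CPM in S1 to 19.6, 18.5, 12.8 and 15.8 CPM in S3 (log2 fold change −1.60, SE 0.20, edgeR adjusted p = 5.38e-05), while Atp5mc1 (−0.56) and Atp5mc3 (−0.018) were not called with TMM. With library totals all 3 were called lower (−1.54 for Atp5mc1 and −2.57 for Atp5mc2). Per kilobase of canonical transcript (RPKM), WT S1 cells held 774 ± 267 of Atp5mc1, 661 ± 193 of Atp5mc3 and 70.5 ± 16.5 of Atp5mc2 (SD, n = 4), and the first 2 of these did not differ beyond their spread. In S3 the same levels were 513 ± 163, 639 ± 152 and 22.8 ± 4.14. The log2 ratio of Atp5mc3 to Atp5mc2 counts went from 3.64 ± 0.16 to 5.23 ± 0.19.

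Ordered by level per kilobase of canonical transcript, the members had Atp5f1b at the top in both stages in WT and KO embryos (1325 ± 121 RPKM in WT S1, 2658 ± 207 in S3). At S1 it was followed by mt-Nd1 (1048 ± 342), mt-Cytb (778 ± 173), Atp5mc1 and Atp5if1 (687 ± 222), neighbours that did not differ beyond their spread. At S3 it was followed by Atp5if1 (2436 ± 421), which overlapped Atp5f1b in its spread and in the Het embryos stood above it (2941 ± 13.3 against 2664 ± 135 RPKM, n = 2). Cox6a1 (1677 ± 354) came next, and then mt-Co1 (1108 ± 142) and mt-Nd1 (1092 ± 137), whose uncorrected levels did not differ beyond their spread. The level of mt-Co1 is divided by its full length, of which 31.3% is copied, and leaves out reads that fit both places, while mt-Nd1 has no copy. The place of mt-Co1 in the order holds for the uncorrected level only. Members whose canonical transcript is longer than their counted exons are understated in this order.

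**Figure D2:**
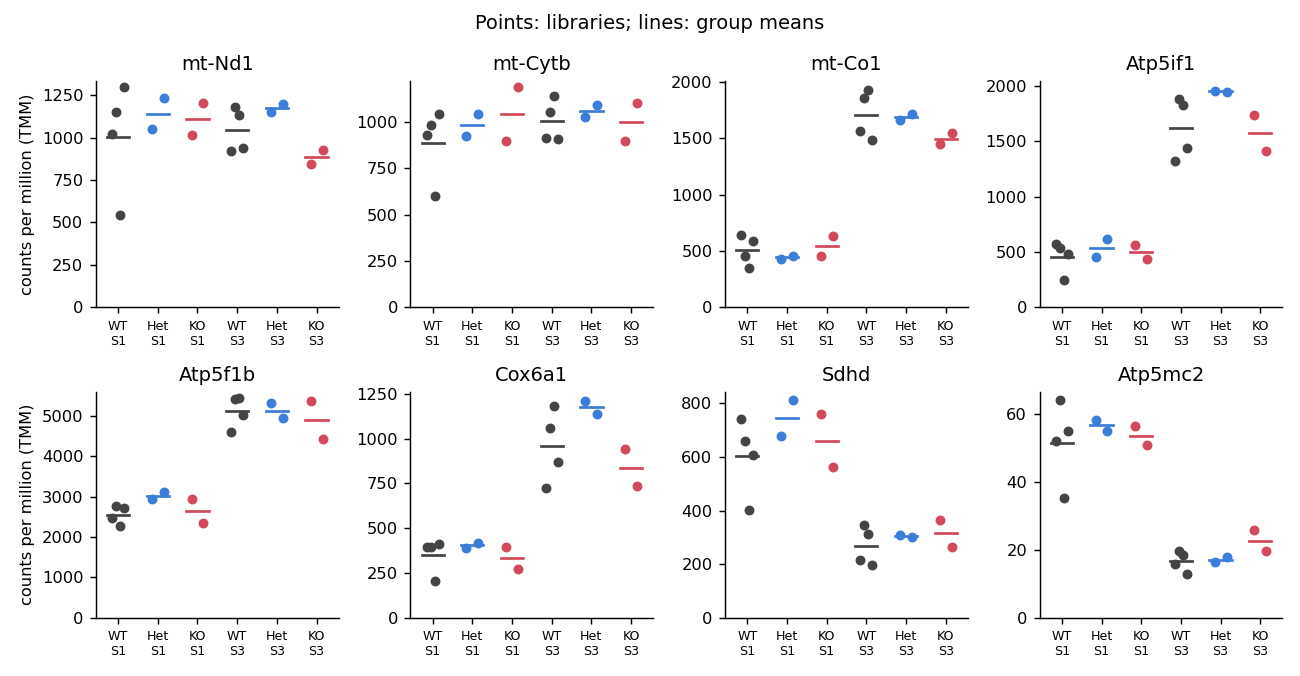
Level of 8 members (vertical axes, CPM on a linear scale from 0) in each of the 16 libraries (points), by genotype and stage, with group means as lines. In WT embryos the S3 points of mt-Co1, Atp5if1, Atp5f1b and Cox6a1 lie above the S1 points, those of Sdhd and Atp5mc2 lie below, and those of mt-Nd1 and mt-Cytb overlap.

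The genes of the mitochondrial genome are transcribed together from each strand as long precursors, yet their mature levels did not move together from S1 to S3. mt-Co1, the catalytic subunit of complex IV, was at 637, 449.8, 347 and 584 CPM in WT S1 and 1863, 1931, 1483 and 1569 CPM in S3 (log2 fold change 1.79, SE 0.19, edgeR adjusted p = 1.82e-05), and it was also called higher with library totals (0.81). mt-Nd1, a core subunit of complex I, was at 1021, 1153, 542 and 1297 CPM and 1182, 1133, 941 and 924 CPM, with overlapping stages and no call (log2 fold change 0.090, SE 0.23, edgeR adjusted p = 0.746). mt-Cytb, the mitochondrial subunit of complex III, was at 932, 982, 601 and 1043 CPM and 1056, 1144, 909.5 and 913 CPM and was not called with TMM either (log2 fold change 0.21, SE 0.17, edgeR adjusted p = 0.324). With library totals mt-Nd1 (−0.89) and mt-Cytb (−0.77) were called lower, as were mt-Nd2, mt-Nd3, mt-Nd5 and mt-Nd6, so that of 12 tested mitochondrial genes 1 was called higher and 6 lower.

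A ratio of counts within a library does not depend on how libraries are scaled. The log2 ratio of mt-Co1 to mt-Nd1 was −0.96 ± 0.35 in WT S1 and 0.71 ± 0.063 in S3 (SD, n = 4), with S1 libraries between −1.36 and −0.64 and S3 libraries between 0.66 and 0.77. In the KO embryos it went from −1.05 to 0.76 and in the Het embryos from −1.37 to 0.52 (means, n = 2). The ratio of mt-Cytb to mt-Nd1, which overlapped between the stages in WT embryos, was −0.13 ± 0.20 in WT S1 and −0.054 ± 0.077 in S3. In the KO embryos it went from between −0.18 and −0.016 to between 0.092 and 0.25, without overlap, and in the Het embryos the mean went from −0.21 to −0.15. These moves were smaller than those of mt-Co1 against mt-Nd1 in each genotype. mt-Nd4 was called higher with TMM (log2 fold change 0.64, SE 0.19, edgeR adjusted p = 0.0144) and stood at −0.34 with library totals.

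The other complex I genes without a copy, mt-Nd2 (−0.029), mt-Nd5 (0.32) and mt-Nd6 (0.37, the one protein gene on the light strand), were not called with TMM. Of the 5 tested genes copied whole in the nucleus, mt-Co3 (1.14) and mt-Co2 (0.76) were called higher with TMM, and mt-Atp6 (0.55), mt-Atp8 (0.78) and mt-Nd3 (0.043) were not. With library totals mt-Co2 stood at −0.23. Few reads lay behind these values, at most 543 in a library, and since these genes have almost no uncopied part their calls were not traced to the mitochondrial genome.

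Setting mean mitochondrial RPKM against mean nuclear RPKM of the same complex within a library, WT embryos showed a shift towards the mitochondrial side from S1 to S3 for complex IV. Nearly all mitochondrial reads of complex IV were those of mt-Co1 (15701 to 50392 in a library), against 84 to 325 for mt-Co2 and 173 to 543 for mt-Co3. The complex IV ratio therefore follows mt-Co1. The log2 ratio for complex IV went from −0.26 ± 0.30 in WT S1 to 0.65 ± 0.19 in S3 (SD, n = 4), and the libraries of the 2 stages did not overlap. For complex I it went from 1.27 ± 0.21 to 0.80 ± 0.23 and for complex III from 1.83 ± 0.20 to 1.56 ± 0.17. Complex V went from −4.96 ± 0.19 to −5.19 ± 0.30, and in these 3 complexes the libraries of the stages overlapped. Within an embryo, the complex IV ratio was higher at S3 in 8 of 8 embryos, those of complexes I and III were lower in 8 of 8 and that of complex V in 7 of 8. With the median RPKM of members these counts were 5 of 8 for complex IV and 6 of 8 for each of complexes I, III and V. Because of the nuclear copies the levels of the ratios for complexes I, IV and V leave out mitochondrial reads that fit both places. Without the genes copied whole, mt-Co1 is the only mitochondrial gene of complex IV. In WT embryos the ratio then went from 1.26 ± 0.30 to 2.20 ± 0.19, a positive level in both stages. In the KO embryos the complex IV ratio went from −0.14 ± 0.67 to 0.58 ± 0.30 and in the Het embryos from −0.64 ± 0.041 to 0.32 ± 0.12 (SD, n = 2). With the median RPKM of members in place of the mean, complex IV went from −2.70 to −2.28 in WT and from −2.60 to −2.43 in Het, and the other way, from −2.10 to −2.60, in KO.

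**Figure D3:**
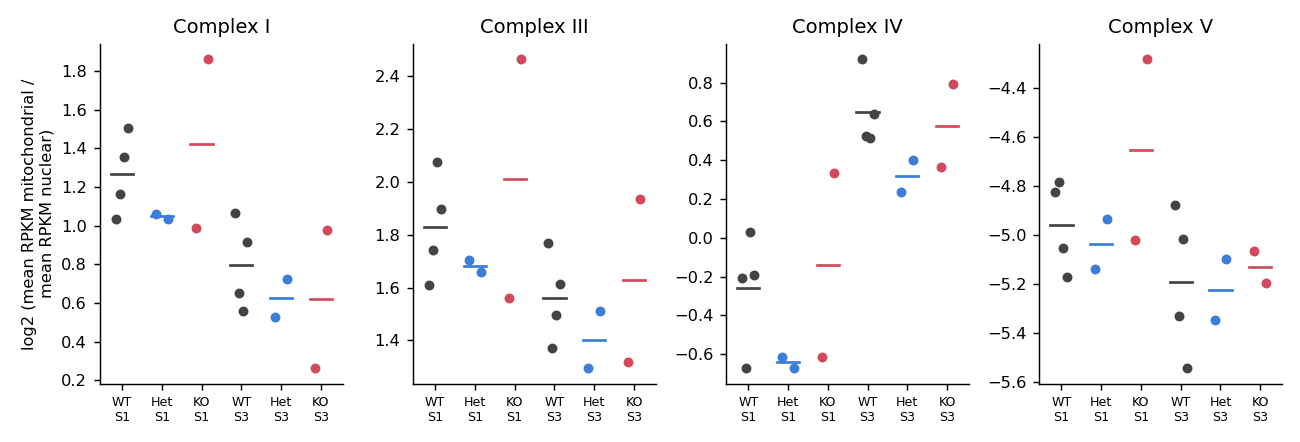
Log2 ratio of the mean RPKM of mitochondrial members to that of nuclear members of the same complex (vertical axes, each with its own range) in each library (points), by genotype and stage, for complexes I, III, IV and V, with group means as lines. For complex IV the WT S3 libraries lie above all WT S1 libraries, and its mitochondrial mean comes nearly all from mt-Co1.

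As a share of all counts both sets of transcripts were lower at S3 than at S1 in WT embryos, when globin took 10.8 to 11.8% of the library against 0.184 to 1.07%. The 13 mitochondrial genes made up 0.434, 0.418, 0.288 and 0.497% of counts in S1 of embryos 1, 5, 8 and 0 and 0.341, 0.341, 0.284 and 0.316% in S3. The 91 nuclear genes made up 3.20, 3.20, 2.11 and 3.06% in S1 and 2.57, 2.52, 1.95 and 1.95% in S3. Embryo 8 was the lowest S1 library in both, and both of its S1 shares lay within the S3 range. Within an embryo, both shares were lower at S3 in 4 of 4 WT, 2 of 2 KO and 2 of 2 Het embryos, by the least in WT embryo 8. With globin left out of the total, both shares were lower in 7 of 8 embryos and turned direction in WT embryo 8, from 0.291 to 0.322% for the mitochondrial and from 2.13 to 2.21% for the nuclear genes. The KO embryos 2 and 9 had mitochondrial shares of 0.379 and 0.573% in S1 and 0.284 and 0.358% in S3, and the Het embryos 3 and 4 had 0.376 and 0.412% and 0.313 and 0.361%. The 95% Wilson interval of a share reached at most 0.00285 percentage points to either side for the mitochondrial genes and 0.00699 for the nuclear genes, which covers counting error only.

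**Figure D4:**
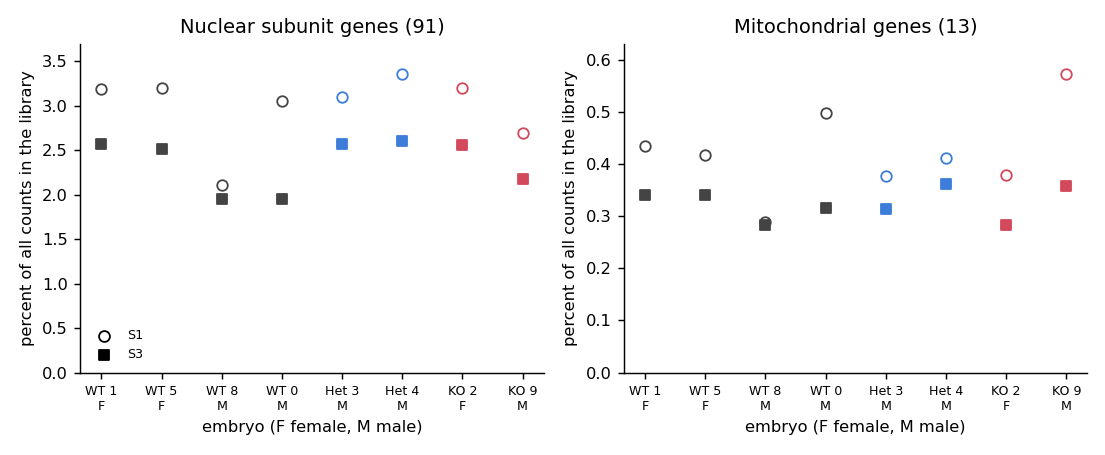
Share of all counts (percent, vertical axes) taken by the 91 nuclear and the 13 mitochondrial members in each embryo (horizontal axis), with open circles for S1 and filled squares for S3. The nuclear share of WT embryo 8 at S1 (2.11%) lies apart from the other WT S1 libraries.

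Genes for proteins that assemble or express the subunits were counted in the same WT comparison, without a test of their difference from the subunits. Of 45 tested assembly factors, 5 were called higher and 24 lower at S3 with TMM (median log2 fold change −0.65) and 1 higher and 40 lower with library totals. Of 31 genes for the copying, transcription and translation of mitochondrial DNA, 1 was called higher and 20 lower with TMM (median −1.22) and 0 and 30 with library totals. Of 14 enzymes of the citric acid cycle and its partners, 4 were called higher and 5 lower, and of 10 regulators of mitochondrial gene expression 2 were called higher and 6 lower with TMM. The lists were chosen with earlier results known, and their counts stand beside the 29.4% and 35.6% of all genes with TMM and the 13.3% and 64.3% with library totals given above.

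Among assembly factors the smallest p-values were those of Cox10 (log2 fold change −2.04, SE 0.18, edgeR adjusted p = 4.74e-06), which makes the haem of complex IV, Uqcc1 (−2.02), a complex III factor, and Tmem70 (−1.51), an ATP synthase factor. Cox10 was at 48.2, 45.8, 29.6 and 41.4 CPM in WT S1 and 11.7, 8.81, 10.5 and 8.49 CPM in S3. For mitochondrial DNA expression they were Fastkd1 (−3.63), an RNA-binding protein of the organelle, Top1mt (−3.48), its topoisomerase, and Tfb2m (−2.12), a transcription factor of the mitochondrial polymerase. Each of these 6 genes fell with no overlap between stages. Among regulators Myc (−3.66) fell and Gabpb1 (1.26), a subunit of the GABP activator, rose. The coactivator Ppargc1b was at 6.15, 7.48, 8.88 and 6.81 CPM in WT S1 and 0.561, 0.498, 0.276 and 0.169 CPM in S3, and since it passed the filter through S1 these levels are given as a description. Among citric acid cycle enzymes Suclg2 (−2.01), Idh2 (−1.75) and Idh3a (−1.20) fell.

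**Figure D5:**
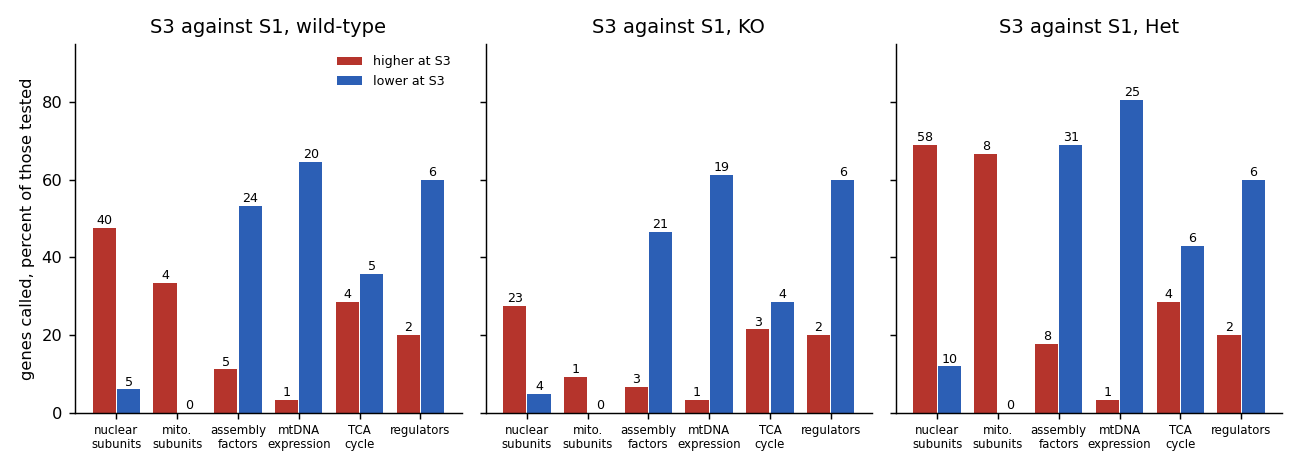
Percent of tested genes called higher and lower from S1 to S3 (bars, edgeR with TMM, numbers of genes above them) in WT, KO and Het embryos, for the nuclear and mitochondrial subunits and the 4 related lists. With TMM the nuclear subunits have more calls higher than lower and the assembly factors and genes of mitochondrial DNA expression more calls lower than higher, while with library totals, not drawn, the nuclear subunits too have more calls lower.

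The same step was tested in the KO and Het embryos, each with 2 libraries a stage. In the KO embryos 95 members were tested, and 24 were called higher and 4 lower with TMM, against 22.6% higher and 30.3% lower among 13446 genes, and 2 higher and 33 lower with library totals, against 11.6% and 54.1%. With the embryo as a block, which uses the pairing of S1 and S3 libraries from 1 animal, the same counts were 57 and 10, against 29.3% and 38.9%. They were 42 and 4 by DESeq2, against 25.4% and 27.7%, 42 and 3 with upper-quartile scaling, against 27.7% and 24.7%, and 38 and 6 without a filter on low counts, against 14.2% and 19.4%. The called genes of smallest p were mostly those of the WT embryos, with Atp5if1 (log2 fold change 1.65, SE 0.23, edgeR adjusted p = 0.00253), mt-Co1 (log2 fold change 1.45, SE 0.23, edgeR adjusted p = 0.00355), Ndufb11 (1.47), Ndufv1 (1.18), Cox6b2 (1.11), Atp5f1e (1.07) and Cox6a1 (1.31) higher and Atp5mc2 (−1.26) lower. mt-Co1 was at 454 and 628 CPM in KO S1 and 1449 and 1545 CPM in KO S3. Leaving out either KO embryo, with the libraries of the other genotypes kept in the fit, gave log2 fold changes of 1.63 to 1.71 for Atp5if1. The same fits gave 1.30 to 1.67 for mt-Co1 and −1.38 to −1.14 for Atp5mc2.

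In the Het embryos 96 members were tested, and 66 were called higher and 10 lower with TMM, against 33.5% and 42.6% among 13085 genes, 15 higher and 44 lower with library totals, against 17.2% and 65.1%, and 6 lower with upper-quartile scaling, against 36.4%. The genes of smallest p were mt-Co1 (log2 fold change 1.94, SE 0.13, edgeR adjusted p = 4.04e-16), Ndufb11 (1.56), Atp5if1 (1.87), Ndufa3 (1.54), Cox6a1 (1.54), Atp5mf (1.44) and Atp5f1e (1.44), all higher with TMM, and Atp5mc2 (−1.73), lower. Leaving out either Het embryo, with the libraries of the other genotypes kept in the fit, gave log2 fold changes of 1.66 to 2.13 for Atp5if1. The same fits gave 1.93 to 1.96 for mt-Co1 and −1.83 to −1.62 for Atp5mc2. Of the 95 members tested in WT, Het and KO alike, 81 had the same sign in all 3 with TMM, against 89.1% of 12735 genes. All 24 genes called higher in KO were called higher in the other genotypes as well (24 of 44 in WT and 24 of 66 in Het), as were 94.7% of all genes called higher in KO, and 4 members were called lower in all 3, against 29.3% of all genes. These 4 include Cox6a2, which passed the filter through S1 in KO (raw counts of 65 and 14, against 0 and 1 in S3) and in Het (55 and 71, against 1 and 0). Its lower calls in KO and Het are therefore not independent of the filter. These 3 comparisons share no libraries. Of the 45 assembly factors, 21 were called lower in KO and 31 in Het, and of the 31 genes of mitochondrial DNA expression 19 and 25, with TMM.

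The question of the study, whether loss of Nprl3 changes erythroblasts at a given stage, was addressed for the chain by comparing KO with WT libraries. At S3, 94 members were tested and 0 were called by edgeR, against 0.424% of 11804 genes called higher and 0.0847% lower. An unadjusted p under 0.05 was reached by 2 members, against 8.59% of all genes. DESeq2 called 0 members, against 1.24% of genes higher and 0.971% lower, and with sex as a covariate it called 3 members, against 2.67% and 3.4%. The median log2 fold change was −0.017 for the nuclear and −0.049 for the mitochondrial members. Without WT embryos 0 and 8 the nuclear median was −0.23 and 0 members were called by edgeR, against 0.102% of genes higher and 0.0424% lower. The member of smallest p was Ndufa4l2, at 9.06 and 2.94 CPM in the KO libraries, 0.140, 1.42, 0.0689 and 0 CPM in the WT libraries of embryos 1, 5, 8 and 0 and 0.445 and 1.74 CPM in the Het libraries (log2 fold change 3.79, SE 1.02, edgeR adjusted p = 0.236). Both KO libraries lay above every WT and Het library. The raw counts were 147 and 55 in KO and 3, 37, 1 and 0 in WT, so the gene passed the filter mainly through the group in which it is high, and its place at the head of the list and its fold change are given as a description.

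Whether Ndufa4l2 was called at S3 depended on the fit. It was called with sex as a covariate (4.15), by DESeq2 with sex as a covariate (5.10), without a filter on low counts (3.79, edgeR adjusted p = 9.33e-06) and without WT embryo 5 (6.38). In the filtered fits among these the gene again passed the filter mainly through the KO libraries, in which it is high. Those calls are therefore given as a description and not as support. These edgeR fits called 2.17% of all genes higher and 2.25% lower with sex, 0.936% and 0.586% without the filter and 0.359% and 0.0171% without WT embryo 5. Ndufa4l2 was not called without KO embryo 2 (2.80, edgeR adjusted p = 0.83) or without embryos 0 and 8 (2.95, edgeR adjusted p = 0.324), and leaving out 1 embryo gave 2.80 to 6.38. At S1 it was at 8.51 and 5.49 CPM in KO against 3.61, 3.34, 1.21 and 1.25 CPM in WT, again with no overlap (log2 fold change 1.6, SE 0.49, edgeR adjusted p = 1.000), and DESeq2 with sex as a covariate called it (1.73, adjusted p = 5.12e-05). The next members at S3 were Atp5mc2 (0.49), mt-Nd1 (−0.19), Sdhd (0.29) and Cox6b2 (0.21), none of them called by edgeR. Sdhd (0.31, adjusted p = 0.0309) and Atp5mc2 (0.49, adjusted p = 0.0433) were called by DESeq2 with sex as a covariate. Without KO embryo 2 edgeR gave 0.066 for Sdhd and 0.30 for Atp5mc2, and without embryos 0 and 8 it gave 0.012 and 0.32. For mt-Co1 the S3 libraries were at 1449 and 1545 CPM in KO against 1863, 1931, 1483 and 1569 CPM in WT.

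At S1, 97 members were tested in KO against WT and 0 were called by edgeR, against 0.0% of 14039 genes called higher and 0.00712% lower. An unadjusted p under 0.05 was reached by 1 member, against 2.56% of all genes. DESeq2 called 0 members, against 0.264% of genes higher and 0.0571% lower, and with sex as a covariate it called 1, against 0.95% and 0.371%. After Ndufa4l2 the smallest p-values belonged to mt-Co3 (0.52), mt-Co2 (0.47), mt-Nd3 (0.53) and mt-Atp6 (0.34), all genes with a whole nuclear copy and few reads. The mitochondrial members had a median of 0.33 and the nuclear members 0.049. Leaving out 1 embryo moved the mitochondrial median between −0.0017 and 0.63 and the nuclear median between −0.18 and 0.24. The WT libraries of embryos 8 and 0, which stood apart in their neutrophil and erythroid markers, are 2 of the 4 in the WT group here.

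The interaction of KO genotype and stage asks whether the change from S1 to S3 differs between KO and WT. Of 96 members tested 0 were called by edgeR, against 0.00742% of 13485 genes called higher and 0.0% lower, and 0 had an unadjusted p under 0.05 (2.96% of all genes), while DESeq2 called 0 as well, against 0.0377% of genes higher and 0.0527% lower. The smallest p-values were those of mt-Atp8 (−1.60), mt-Co3 (−0.68), Ndufa4l2 (2.17), mt-Nd5 (−0.47) and Atp5mc2 (0.38). With 2 KO embryos the test of the difference was coarse, and for mt-Co1 the fitted difference was −0.30 with an SE of 0.33. These fits did not use that the S1 and S3 libraries of an embryo come from 1 animal.

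Het embryos were compared with WT in the same way. At S3, 94 members were tested and 0 were called by edgeR, against 0.0% of 11746 genes in either direction, with 2 members at an unadjusted p under 0.05 (3.13% of all genes) and 0 called by DESeq2, against 0.0% of genes higher and 0.00855% lower. The median was 0.32 for the nuclear members, and the smallest p-values were those of Ndufb1 (0.56), Ndufa3 (0.63), Atp5f1e (0.40), Atp5mk (0.44) and Cox7b (0.31). With sex as a covariate 70 members were called higher and 0 lower, 69 of them among 83 nuclear members, against 10.4% of all genes higher and 7.29% lower, and DESeq2 with sex as a covariate called 74, against 10.7% and 7.67%. Both Het embryos are male, so this fit in effect sets them against the male WT embryos 8 and 0.

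The per-library values show which samples this rests on. At S3 the nuclear members took 2.57, 2.52, 1.95 and 1.95% of counts in WT embryos 1, 5, 8 and 0, 2.57 and 2.61% in Het embryos 3 and 4 and 2.56 and 2.17% in KO embryos 2 and 9. The 2 male WT embryos were the lowest of the 8, and the Het embryos lay beside the female WT embryos. Ndufa3 had 185, 226, 139.9 and 100.2 CPM in WT and 251 and 228 CPM in Het. In the fit with sex the hepatoblast markers went the other way, with 9 of 10 called lower in Het, and their sum at S3 was 290, 212, 561 and 932 CPM in WT embryos 1, 5, 8 and 0 and 145 and 196 CPM in Het. Without embryos 0 and 8 the nuclear median in Het against WT at S3 was 0.074, and 0 members were called by edgeR, against 0.0427% of genes higher and 0.00854% lower. Sex and the state of these 2 WT embryos cannot be told apart, and their part in the result was not tested.

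At S1, 96 members were tested in Het against WT and 0 were called by edgeR, against 0.0% of all genes in either direction, with 1 member at an unadjusted p under 0.05 (4.2% of all genes) and 0 called by DESeq2, against 0.0% of genes higher and 0.16% lower. Among the smallest p-values were those of mt-Nd5 (−0.45), mt-Nd6 (−0.57), Uqcrc1 (0.30) and Atp5f1b (0.24). With sex as a covariate 0 were called by edgeR, against 1.3% of genes higher and 1.46% lower, with 12 members at an unadjusted p under 0.05 (17.8% of all genes), and the median of the nuclear members was 0.50, against 0.22 without it.

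In the 4 related lists 0 genes were called in KO against WT at S3 by edgeR, with an unadjusted p under 0.05 in 2 assembly factors, 2 genes of mitochondrial DNA expression, 1 regulator and 0 citric acid cycle enzymes, against 8.59% of all genes. DESeq2, run on the first 2 lists, called 1 gene of mitochondrial DNA expression, against 1.24% of all genes higher and 0.971% lower. The smallest p-values were those of Cox18 (0.71), an insertase for a complex IV subunit, among assembly factors, Pnpt1 (log2 fold change 0.90, SE 0.16, edgeR adjusted p = 0.0709), an RNA-processing enzyme of the organelle, for mitochondrial DNA expression, Esrra (1.08), a nuclear receptor that activates respiratory genes, among regulators, and Ogdh (−0.25), a dehydrogenase, in the citric acid cycle. Pnpt1 was at 119.7 and 87.8 CPM in KO and 60.5, 58.1, 47.8 and 63.5 CPM in WT at S3.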

How the data were processed

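Total RNA of sorted S1 and S3 foetal liver erythroblasts was amplified with a SMARTer kit, selected for polyadenylated RNA and sequenced in pairs by the authors, who aligned reads with STAR 2.7.9 to mm39 and counted fragments per gene of Ensembl 104 with featureCounts 1.6.4, without strand and without reads of several places. deepTools 3.3.1 is also in their processing notes. The deposited values were raw counts per gene. The table held 4 library columns of no sample, which were not used. Of its 55416 gene identifiers 54749 were matched to a symbol.

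Counts were scaled by TMM and tested with edgeR 4.0.16 (quasi-likelihood, R 4.3.3) on genes with a mean normalised count above 10 over the libraries compared, and p-values were adjusted over all genes tested (Benjamini-Hochberg, threshold 0.05). Only the groups compared entered a main fit, and each main edgeR fit was tested on simulated data, which the alternatives were not. The KO and Het stage fits without 1 embryo, and 1 alternative of the genotype comparisons, also took in libraries of other groups. CPM are counts per 1000000 counts of the TMM-scaled library. RPKM were computed on merged exons for the ratios and on the canonical transcript of GENCODE M39 for orders of level. In some members that transcript is longer than the counted exons, which understates their level. Alternatives were DESeq2 1.42.0, other scalings, no filter, sex as a covariate, the embryo as a block and leaving embryos out. Libraries of the same number come from the same animal, and their deviations from the group means correlated at 0.22, 0.33, 0.32 and 0.07 in WT embryos 1, 5, 8 and 0, 0.42 in KO and 0.046 in Het, over 13402 genes. Replicates within a group and stage are separate embryos, so p-values measure the spread between embryos. The fits of S3 against S1 and of the interaction without the block do not use that both libraries of an embryo come from 1 animal.

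The members and gene lists were chosen with earlier results of these data known. Named genes were all mitochondrial members, the 8 largest rises and falls with non-overlapping libraries among called nuclear members, up to 8 called members or the 5 of smallest p in the other comparisons, isoform families, core subunits and the leading 3 genes of each list. Other genes named with a value, such as Atp5me and Ndufb5, were chosen after their values were seen, and 1 gene that the rule names is not reported here. Of the nuclear members 33 share some exon bases with another gene, and 1 shares over 50% of them. Sequences came from RefSeq and from GRCm39. Nuclear copies were found by aligning each mitochondrial gene to GRCm39.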

Additional observations from a re-analysis of the deposited data

Results flagged for a closer look

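Among 118 groups of 4 WT libraries examined, 12 had 1 library far from the other 3 (gap to the nearest over the whole range above Dixon's 95% critical value), where chance gives about 1 in 20. The S1 library of WT embryo 8 accounted for 8 of them, low in each. It held 2.11% of its counts in nuclear members against 3.06 to 3.20% in the other WT S1 libraries. Atp5pd was at 137 CPM (others 261 to 286), Cox6a1 at 206 (393 to 412), Cox7b at 101 (228 to 247), Cox8a at 194 (366 to 394), Ndufs7 at 135 (293 to 313), Uqcrc1 at 555 (736 to 749) and mt-Atp8 at 0.123 (0.328 to 0.356). In the same library the neutrophil marker sum was 115 CPM and the erythroid marker sum 6634 CPM, and the part of these in the low values was not tested.

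The other 4 fell on 3 libraries. Sdha was at 309.6 CPM in S1 of WT embryo 1 (others 439 to 461), Cox6a2 at 0.0845 CPM in S3 of embryo 0 (others 0), Ndufa4l2 at 1.42 CPM in S3 of embryo 5 (0 to 0.140) and mt-Co2 at 10.0 CPM in S3 of embryo 5 (5.45 to 6.17).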

How the results depend on the processing

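The scaling decided the direction of many stage comparisons. With library totals alone, an alternative added after seeing the data as was leaving out embryos 0 and 8, members called higher and lower were 4 and 40 in WT (44 and 5 with TMM), 2 and 33 in KO (24 and 4) and 15 and 44 in Het (66 and 10). These totals lower the log2 fold change of all genes by about the same amount, so that named genes with a positive value below that amount in WT changed sign. With a call in at least 1 of the 2 fits 24 did so, which describes the shift and not these genes: Atp5f1a −0.79, Atp5f1d −0.20, Cox4i1 −0.21, Cox6b1 −0.20, Cox7a2l −0.91, Cox7b −0.36, Cyc1 −0.77, Ndufa4 −0.20, Ndufs1 −0.72, Ndufs3 −0.38, Ndufs8 −0.71, Ndufv2 −0.57, Sdha −0.71, Sdhc −0.92, Uqcrc1 −0.42, Uqcrc2 −0.79, Uqcrfs1 −0.74, mt-Co2 −0.23, mt-Cytb −0.77, mt-Nd1 −0.89, mt-Nd3 −0.93, mt-Nd4 −0.34, mt-Nd5 −0.65 and mt-Nd6 −0.60. Upper-quartile scaling gave 42 higher in KO (27.7% of all genes), 3 lower in WT (29.1%) and 6 lower in Het (36.4%). DESeq2 gave 42 higher in KO (25.4% of all genes) and no filter on low counts 38 (14.2%). With the replicate block, members called higher and lower were 57 and 10 in KO (29.3% and 38.9% of all genes) and 57 and 6 in WT (31.7% and 37.0%). In the genotype comparisons sex as a covariate gave 1 call in KO at S3 (2.17% of all genes higher) and 70 in Het at S3, DESeq2 with sex gave 3, 74 and, for KO at S1, 1, and no filter gave 1 for KO at S3 (0.936% higher). The block changed no other call count by over 1.5 times.

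Leaving out 1 embryo gave 26 to 47 calls higher and 3 to 5 lower in WT, the lowest without embryo 5 (26, against 23.7% of all genes) and without embryo 0 (3, against 32.6%). It gave 6 to 7 higher and 1 lower in KO, and 8 to 14 higher and 1 to 3 lower in Het, where the lone embryo was assumed to vary like the other libraries. In KO against WT at S3, leaving out 1 embryo gave a call only without WT embryo 5 (0.359% of all genes), that of Ndufa4l2. In each filtered fit that called it at S3, this gene passed the filter mainly through the KO libraries. With globin left out of the total, or coding genes only, the mean mitochondrial share at S3 was 0.361 and 0.365% in WT (0.320 with all counts) and 0.381 and 0.386% in Het (0.337), and in WT embryo 8 the share then rose from S1 to S3 (0.291 to 0.322% and 0.294 to 0.326%). With the median RPKM of members, the complex IV ratio changed by 0.42 from S1 to S3 in WT and turned direction in KO (−2.10 to −2.60). Over 1251 single-gene values under alternatives, 1107 kept direction and side of the threshold, 44 lost and 51 gained a call, 24 changed sign with a call in at least 1 of the 2 fits (those listed above), and 25 changed sign with no call in either, some of them on leaving out 1 embryo. With 2 embryos a group, differences by genotype smaller than the spread between embryos were not detectable, and the cause of the differences between settings was not tested.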

Other observations

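The nuclear members are short genes, and the change from S1 to S3 in WT embryos varied with length. Of the 84 tested nuclear members 41 have a canonical transcript of up to 1000 bases, with 51.2% called higher and a median log2 fold change of 0.71 (TMM), against 32.8% and 0.070 for 551 coding genes of that length. Above 1000 bases the 43 members had 44.2% called higher and a median of 0.49, against 28.1% and −0.23 for 10616 coding genes. Spearman's rho of fold change with length was −0.22 across the 84 members and −0.036 across 11167 coding genes, as a description across genes that share libraries.

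Mitochondrial ribosomal RNA, which the selection for polyadenylated RNA depletes, took 0.174% of counts in S1 of WT embryo 1 and 0.0228 to 0.0649% in the other 15 libraries, while the protein-coding mitochondrial share of that library (0.434%) lay within the range of the other S1 libraries.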
